A study of Mus musculus with 16 samples.

Results

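The 7 genes described here, Usp25, Usp16, Ltn1, Ttc3, Psmg1, Hspa13 and Dnajc28, encode proteins of the ubiquitin system, of proteasome assembly and of protein folding. All lie in the part of mouse chromosome 16 that is present in 3 copies in Dp16 mice. They were chosen by gene name from a table of 55385 genes, and all 7 were among the 17132 genes that passed the filter on low counts. The level of each was followed over 4 genotypes that combine 2 or 3 copies of the segment with or without amyloid transgenes.

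Polyadenylated RNA was sequenced from the hippocampus of mice aged 9 months, in 16 libraries, 4 per group with 2 females and 2 males each. The wild-type (WT) mice were C57BL/6J per the labels, which name no strain for the other groups. Dp16 mice carry an engineered duplication of the chromosome 16 region that corresponds to most of human chromosome 21. 5xFAD mice have 2 copies of that region and carry human transgenes, APP among those, bearing familial Alzheimer disease mutations, expressed from Thy1 promoter sequence and so mainly in neurons, and 5xFAD-Dp16 mice carry both the transgenes and the duplication. The labels list no treatment. The libraries are named by group and by the number in their title. The design text counts 4 mice per group, and if libraries were not from separate animals, the p-values measure only the spread between these libraries. The labels give no litter, breeding or batch.

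Ubiquitin is attached to proteins by ligases, removed by deubiquitinases, and read by the proteasome, which degrades the marked protein. Usp25 and Usp16 are deubiquitinases, Ltn1 and Ttc3 are ubiquitin ligases, and Psmg1 is a chaperone that helps to assemble the ring of the 20S proteasome core. Hspa13 is an atypical member of the HSP70 chaperone family, and Dnajc28 carries the J domain by which cochaperones engage HSP70 proteins. Neurons depend on this machinery to clear faulty and aggregating proteins.

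Total gene counts ranged from 16922937 to 25308693 per library. The 6 markers of hippocampal neurons were all detected and summed to between 418 and 1219 CPM per library, where CPM is the count scaled to a common library size, with trimmed-mean (TMM) scaling factors. Markers of the thalamus, a neighbouring region, were high in 6 libraries (WT 4, Dp16 14, 5xFAD-Dp16 1, and 5xFAD 6, 13 and 15). The mean log2 level of the 10 thalamus markers, set to 0 at the WT mean, was 1.26 to 2.08 in those 6 libraries and -0.87 to -0.39 in the other 10. Of 7 choroid plexus markers, 0 were called and 0 had positive values in Dp16 against WT (median log2 difference -3.70) and in all carriers against non-carriers (-2.33). The median between 5xFAD-Dp16 and 5xFAD, -1.11, turned positive without 5xFAD 13 and without the 6 libraries high in thalamus markers. Their summed level was 441 to 7943 CPM in WT, 45.3 to 919 CPM in Dp16, 52.7 to 5990 CPM in 5xFAD and 65.1 to 2877 CPM in 5xFAD-Dp16, and their part in the levels of the members was not tested. Because bulk tissue was sequenced, fewer cells of a type and less RNA per cell cannot be told apart.

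On chromosome 16 of GRCm38 (GENCODE M21), the protein-coding members run in this order. Hspa13 lies at chr16:75745431-75767104 on the minus strand and Usp25 at chr16:77013706-77116780 on the plus strand. Ltn1, at chr16:87376651-87432612 on the minus strand, and Usp16, at chr16:87454703-87483517 on the plus strand, are close neighbours. Dnajc28 lies at chr16:91614254-91619026 on the minus strand, Ttc3 at chr16:94370618-94469343 on the plus strand, and Psmg1 at chr16:95979933-95990960 on the minus strand. At its 3′ end Usp16 overlaps Cct8, on the opposite strand, by 192 bases, and Ttc3 overlaps Pigp, also on the opposite strand, by 1225 bases. Cct8 rose in carriers (log2 difference 0.59, edgeR adjusted p = 3.47e-06), and Pigp was at 0.26 and did not pass (0.233). The whole of Dnajc28 is covered by the antisense gene Gm15964, which had 0 to 11 counts per library. The library kit keeps strand, but the strand setting of the counting is not given in the sources used here, so reads from the overlaps cannot be assigned with certainty.

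Promoter sequence was matched for 6 of the 7 members in RefSeq (GRCm38.p6), with no match for Hspa13. The sequences of Usp16, Psmg1 and Dnajc28 are shown because these 3 members were the least steady in their calls. Usp16 shares a short run of letters with Psmg1 and another with Dnajc28, and neither run is in all 3. Capitals mark the runs CGGAAG, the core of ETS-factor motifs, and CCCACAAT, which was picked after these sequences were seen. Numbers with a minus sign count bases before the RefSeq start site. For Psmg1, chr16:95990961-95991070 on the minus strand is bases -110 to -1. For Dnajc28, chr16:91619027-91619109 on the minus strand is bases -110 to -28, and for Usp16, chr16:87454955-87454984 on the plus strand is bases -30 to -1. The 27 bases of Dnajc28 nearest the start site are annotated exon in GENCODE M21 and were left out. For Usp16 all 110 bases before the RefSeq start site are annotated exon, and the 30 nearest to it are shown. The Usp16 bases thus lie inside the gene as placed above.
Psmg1: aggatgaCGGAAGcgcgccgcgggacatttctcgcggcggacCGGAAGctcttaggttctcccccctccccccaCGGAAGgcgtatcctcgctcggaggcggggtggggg
Dnajc28: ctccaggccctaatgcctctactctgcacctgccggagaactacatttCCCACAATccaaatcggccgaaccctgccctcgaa
Usp16: ttCCCACAATgccgcgttcCGGAAGttgcc

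Both strands of the 300 bases around each start site (250 before and 50 after) were searched. CGGAAG was found in Psmg1 at 3 places, once in Usp16 at -11 to -6 and once in Ltn1 across the start site, and it is present in 16.9% of the 32851 promoters of the same length. CCCACAAT was found in Usp16 at -28 to -21 and in Dnajc28 at -62 to -55, and it is present in 1.06% of promoters. Because this run was picked as one that Usp16 and Dnajc28 share, that share is no measure of enrichment. GAANNTTC, the core of the heat shock element, was in 0 of the 6 members and in 7.86% of all promoters. Other motifs searched were CCAAT, in 2 members (37.4% of all promoters), and GGGCGG, in 1 (35.7%). CACGTG was in 2 members (7.15%) and TGACNNNGC in 2 (12.4%). These matches describe letters, and no factor binding was measured.

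Compared per unit of length, Ttc3 was by far the most abundant member. Its level averaged 89.5 RPKM (reads per length of gene and per library total) over the 16 libraries and stood at the 96.5th percentile of tested genes. Hspa13 averaged 12.6, Psmg1 12.5, Usp25 10.2, Ltn1 7.67, Usp16 5.603 and Dnajc28 5.37 RPKM, the last at the 52.5th percentile. The least deeply counted member was Psmg1, with 157 to 461 reads per library, and the most deeply counted was Ttc3, with 15179 to 33438.

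**Figure D1:**
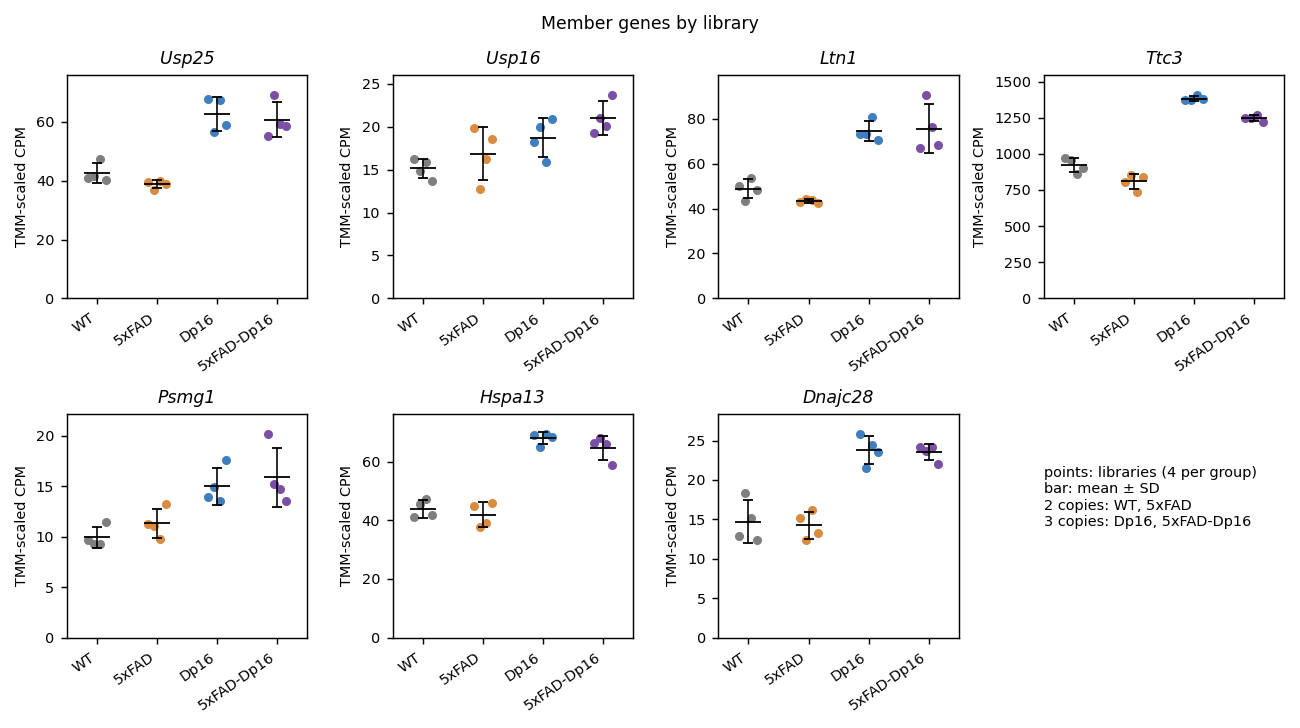
Level of each member in TMM-scaled CPM (vertical axis) in the 16 libraries (points) by genotype, with the mean and SD of 4 libraries per group. For 6 members the Dp16 and 5xFAD-Dp16 points lie above all WT and 5xFAD points, while for Usp16 they overlap. The share of all genes that separate in this way was not counted.

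All 7 members had higher mean RNA levels in Dp16 than in WT, and 5 of the 7 passed the test (edgeR quasi-likelihood, Benjamini-Hochberg adjusted p below 0.05 over all tested genes). Across all genes 0.228% were called in that comparison. The 5 were Usp25, Ltn1, Ttc3, Hspa13 and Dnajc28. The same 5 were called between 5xFAD-Dp16 and 5xFAD, where 0.304% of all genes were called. With the 8 carriers of the duplication set against the 8 non-carriers, the average of both contrasts, 6 of 7 were called, all but Usp16, and 0.531% of all genes were. The median log2 difference of the members was 0.59 without transgenes, 0.63 with them and 0.60 over all carriers. Over all tested genes these medians were 0.0015, -0.030 and -0.016.

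The rest of the segment gives a closer comparison. Of its 98 other tested genes, 31 (31.6%) were called between Dp16 and WT, 27 (27.6%) between 5xFAD-Dp16 and 5xFAD, and 51 (52.0%) between carriers and non-carriers. Their median log2 differences were 0.55, 0.50 and 0.50. Whether the members differ from the other segment genes was not tested.

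**Figure D2:**
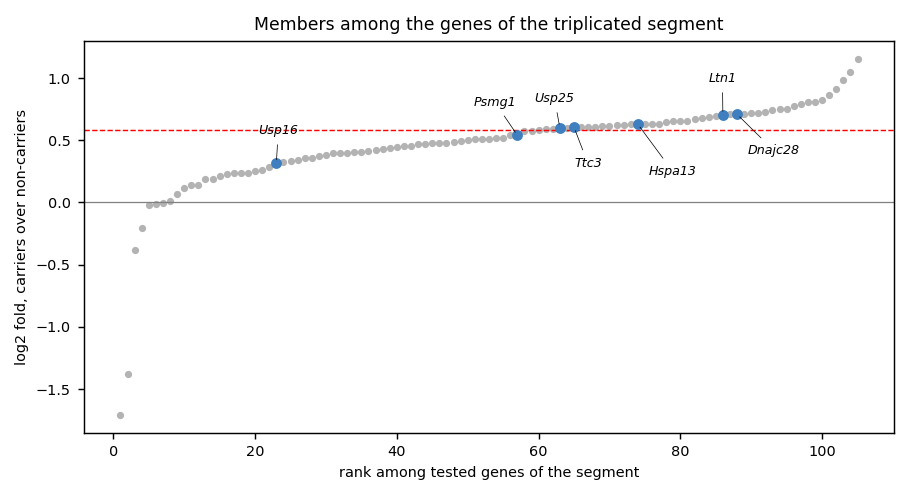
Fitted log2 fold of carriers over non-carriers (vertical axis) for the 105 tested genes of the segment in rising order (horizontal axis), members in blue, with the dashed line at 1.5-fold. Usp16, at 0.31, is the lowest member, and Dnajc28, at 0.71, is the highest.

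Usp25 removes ubiquitin chains and is known as a regulator of inflammatory signalling and of the processing of amyloid precursor protein. Its levels were 41.0, 41.5, 47.5 and 40.4 CPM in WT 2, 4, 7 and 16, and 67.7, 56.4, 67.4 and 58.9 CPM in Dp16 3, 5, 12 and 14. With transgenes they were 39.5, 36.8, 39.9 and 39.0 CPM in 5xFAD 6, 10, 13 and 15, and 55.3, 69.2, 59.5 and 58.8 CPM in 5xFAD-Dp16 1, 8, 9 and 11. Every carrier library was above every non-carrier library. The carrier difference was 0.60 ± 0.062 on the log2 scale (SE), or 1.52-fold with a 95% interval of 1.38 to 1.66 (edgeR adjusted p = 3.59e-05).

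Usp16 removes ubiquitin from histone H2A and has been studied as a triplicated gene in stem cell self-renewal. Levels were 16.2, 14.8, 15.9 and 13.7 CPM in WT 2, 4, 7 and 16 and 18.2, 19.9, 15.8 and 21.0 CPM in Dp16 3, 5, 12 and 14. They were 19.9, 12.8, 16.2 and 18.6 CPM in 5xFAD 6, 10, 13 and 15, and 19.2, 21.0, 20.1 and 23.7 CPM in 5xFAD-Dp16 1, 8, 9 and 11. Usp16 was the member whose carriers and non-carriers overlapped: Dp16 12 was below WT 2 and WT 7, and 5xFAD 6 was above 5xFAD-Dp16 1. The carrier difference was 0.31 ± 0.091 (log2, SE), or 1.24-fold with a 95% interval of 1.09 to 1.42 that lies below 1.5, and it did not pass (edgeR adjusted p = 0.141).

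The upper bound for Usp16 stayed below 1.5 in 22 of 23 edgeR fits, the exception being the fit without the 6 libraries high in thalamus markers. There the fold was 1.39 (95% interval 1.20 to 1.63) and passed with an adjusted p of 0.0496. Usp16 also passed in that contrast with DESeq2 (adjusted p = 0.0284) and with no count filter (0.0342). The WT library high in thalamus markers had 14.8 CPM of Usp16, where the other WT libraries had 13.7 to 16.2 CPM. Such a library had 21.0 CPM against 15.8 to 19.9 CPM in Dp16, and 19.2 CPM against 20.1 to 23.7 CPM in 5xFAD-Dp16. In 5xFAD, the 3 such libraries had 16.2 to 19.9 CPM and the remaining library, 5xFAD 10, had 12.8 CPM. Summed oligodendrocyte markers were 9546, 7506 and 11542 CPM in those 3 libraries (5xFAD 6, 13 and 15) and 4458 CPM in 5xFAD 10. The gene whose level was most like that of Usp16 over the 16 libraries was Mal, a myelin protein gene outside the segment (Pearson r = 0.87). With the mean log2 level of the thalamus markers as a covariate over all 16 libraries, the carrier fold of Usp16 was 1.27 (95% interval 1.12 to 1.45). It did not pass there (edgeR adjusted p = 0.0877). The covariate itself was not tested, nor was the part of oligodendrocyte content in the levels of Usp16.

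Ltn1 is the ubiquitin ligase of ribosome-associated quality control, which marks unfinished proteins on stalled ribosomes. It was at 50.01, 43.5, 53.8 and 48.4 CPM in WT 2, 4, 7 and 16 and at 73.1, 73.2, 80.8 and 70.6 CPM in Dp16 3, 5, 12 and 14. It was at 43.1, 44.3, 43.7 and 42.3 CPM in 5xFAD 6, 10, 13 and 15, and at 67.0, 90.6, 76.5 and 68.2 CPM in 5xFAD-Dp16 1, 8, 9 and 11. Carriers and non-carriers did not overlap, the 5xFAD libraries lay close together, and 5xFAD-Dp16 8 was the highest of all 16. The carrier difference was 0.70 ± 0.067 (log2, SE), or 1.63-fold with a 95% interval of 1.48 to 1.80 (edgeR adjusted p = 1.53e-05). Between 5xFAD-Dp16 and 5xFAD it was 1.74-fold, with an interval of 1.52 to 2.00 that lies above 1.5. The log2 difference there was 0.80, and 0.70 to 0.86 with each library left out in turn, where 1.5-fold is 0.585. The intervals of those fits were not read against 1.5 in this contrast.

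Ttc3 is a RING-type ubiquitin ligase reported to act on phosphorylated Akt. It was at 968, 958, 858 and 905 CPM in WT 2, 4, 7 and 16 and at 1374, 1370, 1408 and 1377 CPM in Dp16 3, 5, 12 and 14. In 5xFAD 6, 10, 13 and 15 it was at 808, 854, 736 and 836 CPM, and in 5xFAD-Dp16 1, 8, 9 and 11 at 1249, 1251, 1266 and 1221 CPM. No pair of groups overlapped, and their order from low to high was 5xFAD, WT, 5xFAD-Dp16 and Dp16. For how many of all genes this holds was not counted. The carrier difference was 0.60 ± 0.054 (log2, SE), or 1.52-fold with a 95% interval of 1.40 to 1.65 (edgeR adjusted p = 9.96e-06). The spread in the carrier groups was small, with SDs of 17.3 and 18.8 CPM over means of 1382 and 1247 CPM.

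Psmg1 pairs with Psmg2 to guide the first steps of 20S ring assembly. Levels were 9.68, 9.31, 9.32 and 11.4 CPM in WT 2, 4, 7 and 16 and 13.9, 14.9, 13.5 and 17.6 CPM in Dp16 3, 5, 12 and 14. With transgenes they were 11.3, 11.1, 9.75 and 13.2 CPM in 5xFAD 6, 10, 13 and 15, and 20.1, 15.2, 14.7 and 13.6 CPM in 5xFAD-Dp16 1, 8, 9 and 11. Carriers were above non-carriers by a narrow gap, between 5xFAD 15 and Dp16 12. The highest library of each carrier group was the one high in thalamus markers, but this did not hold in the non-carrier groups. In WT that library had 9.314 CPM and the others 9.322 to 11.4 CPM. In 5xFAD the 3 such libraries had 9.75 to 13.2 CPM and 5xFAD 10 had 11.1 CPM. The carrier difference was 0.54 ± 0.097 (log2, SE), or 1.45-fold with a 95% interval of 1.26 to 1.68 (edgeR adjusted p = 0.0129). It was 0.45 without the 6 libraries high in thalamus markers, a fit which leaves 1 5xFAD library. With the mean log2 level of the thalamus markers as a covariate over all 16 libraries, it was 0.57 (edgeR adjusted p = 0.00295). The separate contrasts, of 0.59 in Dp16 against WT and 0.49 in 5xFAD-Dp16 against 5xFAD, did not pass in edgeR (adjusted p = 0.191 and 0.113) and passed in DESeq2 (0.016 and 0.0177).

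Hspa13 is found at the endoplasmic reticulum and lacks the peptide-binding domain of other HSP70 proteins. It was at 41.0, 45.6, 47.2 and 41.8 CPM in WT 2, 4, 7 and 16 and at 69.0, 65.0, 69.3 and 68.5 CPM in Dp16 3, 5, 12 and 14. It was at 44.9, 37.6, 39.0 and 46.0 CPM in 5xFAD 6, 10, 13 and 15, and at 66.3, 68.0, 66.0 and 58.7 CPM in 5xFAD-Dp16 1, 8, 9 and 11. Carriers and non-carriers were well apart. Carriers differed from non-carriers by 0.63 ± 0.057 (log2, SE), or 1.55-fold with a 95% interval of 1.42 to 1.68 (edgeR adjusted p = 1.05e-05), and the log2 difference was 0.63 in each of the separate contrasts.

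Dnajc28 had the lowest RPKM of the members. Levels were 12.9, 18.3, 15.2 and 12.4 CPM in WT 2, 4, 7 and 16 and 25.8, 21.5, 24.4 and 23.6 CPM in Dp16 3, 5, 12 and 14. They were 15.2, 12.4, 16.2 and 13.3 CPM in 5xFAD 6, 10, 13 and 15, and 24.2, 23.6, 24.2 and 22.02 CPM in 5xFAD-Dp16 1, 8, 9 and 11. Every carrier was above every non-carrier, of which WT 4 was the highest. Carriers exceeded non-carriers by 0.71 ± 0.086 (log2, SE), or 1.63-fold with a 95% interval of 1.44 to 1.85 (edgeR adjusted p = 0.000212). Between Dp16 and WT, where it was 0.69 (adjusted p = 0.0159), the call was lost without any 1 of WT 2, 7 and 16 and Dp16 3, 12 and 14, with adjusted p up to 0.0948. In the transgene background, where it was 0.72 (adjusted p = 0.0116), it was lost without 5xFAD-Dp16 9 (0.0526).

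**Figure D3:**
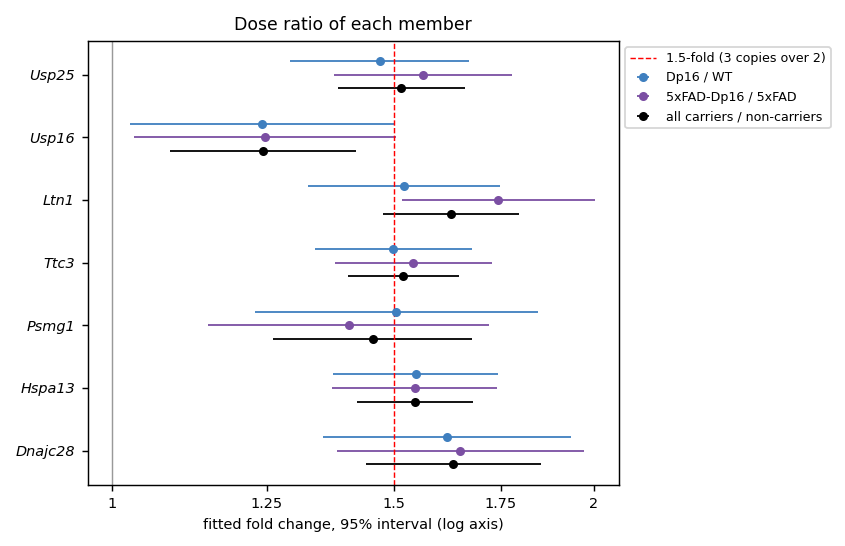
Fitted fold change (horizontal log axis) of each member for Dp16 over WT, 5xFAD-Dp16 over 5xFAD and all carriers over non-carriers, with 95% intervals and a dashed line at 1.5, the ratio of 3 copies to 2. The carrier interval of Usp16 ends at 1.42, and the 5xFAD-Dp16 over 5xFAD interval of Ltn1 starts at 1.52.

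The dose ratio of 1.5 lay inside the 95% interval of all 7 members for Dp16 against WT, of 6 members with transgenes (not Ltn1) and of 6 members over all carriers (not Usp16). Over the 23 edgeR fits of the carrier contrast, the interval lay above 1.5 in 2 for Ltn1 (without WT 7 and without 5xFAD-Dp16 1) and in 2 for Dnajc28. The latter were 1.83-fold (1.57 to 2.14) without the 6 libraries high in thalamus markers and 1.72-fold (1.54 to 1.93) without WT 4. The calls between 5xFAD-Dp16 and 5xFAD came from a fit with the spread shared over all 4 groups. When these 2 groups were fitted alone, 0 of the 5 calls remained (edgeR adjusted p 0.0528 to 0.132), and 1 of 17132 tested genes was called. The log2 differences of those 5 genes there were 0.63 to 0.79, and the cause of the loss was not tested.

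The response to the third copy did not differ detectably with the transgenes. For the interaction of duplication and transgenes 0 members and 0% of all genes were called by edgeR, and DESeq2 also called 0 genes. At an unadjusted p under 0.05, edgeR had 1114 genes and 0 members. Member estimates ran from -0.099 for Psmg1 to 0.20 for Ltn1 (log2). For Ltn1, the 95% interval of this fold difference was 0.942 to 1.39 (edgeR adjusted p = 0.747). It was 0.769 to 1.31 for Usp16, 0.701 to 1.24 for Psmg1 and 0.794 to 1.31 for Dnajc28. These intervals leave room for sizeable differences either way in Usp16, Psmg1 and Dnajc28, and upwards in Ltn1.

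The transgenes came with smaller differences in the members. Between 5xFAD and WT 0 of 7 were called by edgeR, while 7.26% of all genes were, and Ttc3 was the 1 member with an unadjusted p under 0.05. DESeq2 called 1 member there, also Ttc3. Between 5xFAD-Dp16 and Dp16 0 of 7 were called by edgeR and by DESeq2, 0 had an unadjusted p under 0.05 in edgeR, and 3.02% of all genes were called.

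Ttc3 differed by -0.19 ± 0.076 (log2, SE) between 5xFAD and WT (edgeR adjusted p = 0.137, DESeq2 adjusted p = 0.00289) and by -0.15 between 5xFAD-Dp16 and Dp16 (edgeR adjusted p = 0.509). The average of these contrasts, 8 transgenic against 8 other libraries, was added after the values were seen. It gave -0.17 ± 0.054 for Ttc3, or 0.889-fold with a 95% interval of 0.821 to 0.962. The edgeR adjusted p was 0.063, with 8.6% of all genes called. With DESeq2's size factors in the edgeR fit it was 0.045, without 5xFAD 10 it was 0.0249, and in DESeq2 it was 6.99e-05. In the fit without the 6 libraries high in thalamus markers, which leaves 1 5xFAD library, the difference between 5xFAD and WT was -0.098 (adjusted p = 0.754). Markers of excitatory neurons were also lower in 5xFAD than in WT, with 0 of 6 positive, 2 called lower and a median log2 difference of -0.43. Their summed level was 4181 to 11260 CPM in 5xFAD and 7986 to 11344 CPM in WT. Their part in the Ttc3 levels was not tested.

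The levels of Usp25 did not overlap between 5xFAD and WT either, being lower in 5xFAD, with a log2 difference of -0.14 that did not pass. How many of all genes were without overlap there was not counted. The other members differed by between -0.17 (Ltn1) and 0.19 (Psmg1). Between females and males 0 of 7 were called by edgeR and by DESeq2, 0 had an unadjusted p under 0.05 in edgeR, and 0.0642% of all genes were called.

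Psmg1 and Ltn1, which work with a partner encoded outside the segment, changed in ratio to that partner, and Usp25 in ratio to a paralog. Psmg2, the other subunit of the assembly heterodimer, Nemf, which recruits Ltn1 to the stalled ribosomal subunit, and Usp28, the closest paralog of Usp25, were not called in any of the 8 comparisons. The RPKM ratio of Psmg1 to Psmg2 was 1.22 ± 0.212 for WT and 1.77 ± 0.184 for Dp16, against 1.29 ± 0.1001 for 5xFAD and 1.99 ± 0.171 for 5xFAD-Dp16 (SD, n = 4 each). The ratio of Ltn1 to Nemf was 0.786 ± 0.128, 1.13 ± 0.113, 0.726 ± 0.0783 and 1.26 ± 0.274 in the same order. That of Usp25 to Usp28 was 3.09 ± 0.542, 4.99 ± 0.810, 2.69 ± 0.245 and 4.29 ± 0.417. In each of the 3 ratios every carrier library lay above every non-carrier library. The same held for the levels of Psmg1, Ltn1 and Usp25 alone, so the ratios are not independent evidence of their rise.

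On the log2 scale the carrier difference was 0.58 for Psmg1 over Psmg2, 0.65 for Ltn1 over Nemf and 0.68 for Usp25 over Usp28. Each had p = 0.000408 in a two-sided exact permutation test within transgene state, before and after adjustment over the 3 ratios, which is the smallest value that the 4900 splits can give. Without the 6 libraries high in thalamus markers the adjusted p was 0.0125 for each, again the smallest possible.

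**Figure D4:**
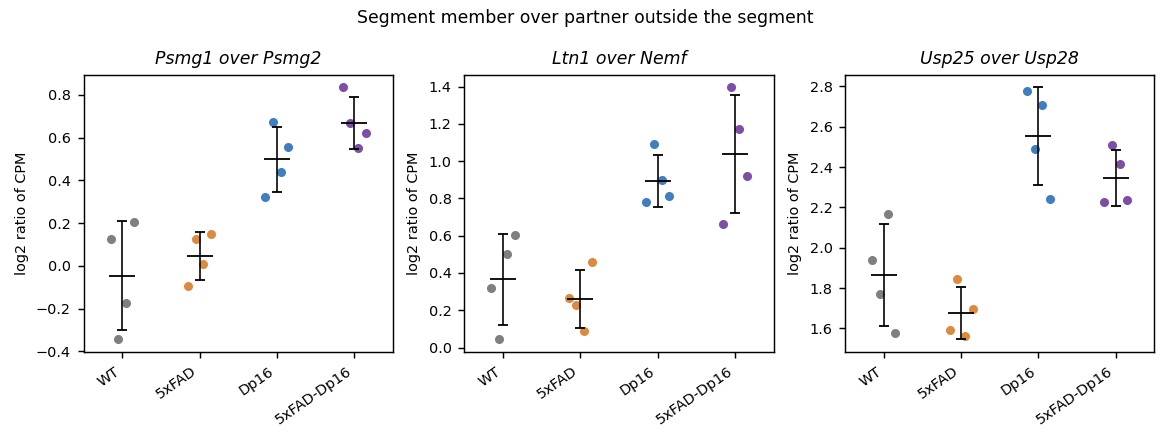
Log2 ratio of the CPM of a segment member to that of its partner (for Usp25, its paralog) outside the segment (vertical axis). Points are libraries by genotype, with the mean and SD of 4 libraries. Carriers exceed non-carriers by 0.58, 0.65 and 0.68 for the 3 ratios.

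The other genes of these pathways, outside the segment, were not called with the duplication. In all, 10 lists were taken, with 45 ubiquitin-specific proteases, 17 genes of histone H2A ubiquitylation, 21 of ribosome-associated quality control, 14 proteasome assembly factors, 14 subunits of the 20S core, 18 of the 19S regulator, 7 immunoproteasome and 11S cap genes, 21 of the HSP70 family with its nucleotide exchange factors, 38 DNAJ cochaperones and 12 genes of Akt signalling. In Dp16 against WT, in 5xFAD-Dp16 against 5xFAD and over all carriers, 0 genes of any list were called by edgeR. Of all genes, 0.228%, 0.304% and 0.531% were called there, so 0 calls in the lists are near the share of all genes. List medians lay between -0.015 and 0.084 (log2) in Dp16 against WT, where the median of all genes was 0.0015. They were wider apart in 5xFAD-Dp16 against 5xFAD, where the median of all genes was -0.030. There they ran from -0.26 for the immunoproteasome list (2 of 7 positive) to 0.21 for Akt signalling (11 of 12 positive). Medians of cell and tissue markers also differed in that contrast. They were -0.32 for microglia (1 of 7 positive), 0.35 for excitatory neurons (6 of 6) and -0.70 for thalamus (0 of 10). The part of these tissue differences in the list medians was not tested.

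**Figure D5:**
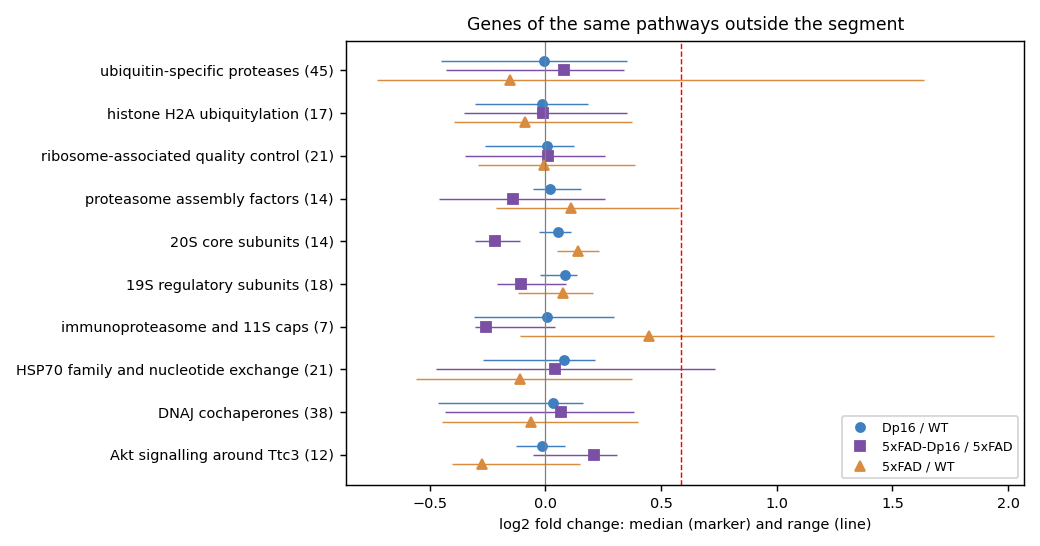
Median (marker) and range (line) of log2 fold changes of the 10 lists of pathway genes outside the segment, number of tested genes in brackets, in 3 comparisons, with the dashed line at 1.5-fold. List medians lie between -0.015 and 0.084 for Dp16 over WT and between -0.26 and 0.21 for 5xFAD-Dp16 over 5xFAD, and the 5xFAD over WT range of immunoproteasome genes reaches 1.94.

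Of the 14 subunits of the 20S core, 0 were called in any of the 8 comparisons, in which 0% to 8.6% of all genes were called. Between 5xFAD and WT 14 of 14 values were positive (median log2 difference 0.14), and between Dp16 and WT 12 of 14 (median 0.053). By contrast, 0 of 14 were positive between 5xFAD-Dp16 and 5xFAD (-0.22), between 5xFAD-Dp16 and Dp16 (-0.12) and between females and males (-0.089). The median between 5xFAD-Dp16 and 5xFAD ranged from -0.29 to -0.094 over the alternatives tried, without a change of sign. The 5xFAD group holds 3 of the 6 libraries high in thalamus markers, and the part of that tissue was not tested.

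With the transgenes, some genes of these pathways were called. The immunoproteasome subunits Psmb8 and Psmb9, which replace core subunits in immune-stimulated cells, rose 3.36-fold and 3.83-fold in 5xFAD against WT (edgeR adjusted p = 2.33e-06 and 1.10e-05) and 2.27-fold and 2.54-fold in 5xFAD-Dp16 against Dp16. In all, 5 of the 7 genes of that list rose in 5xFAD, among them the cap subunit Psme1, 1.34-fold, and 0 fell. Microglia markers rose in the same libraries, 7 of 7 being called, with a summed level of 774 to 1397 CPM in 5xFAD and 340 to 414 CPM in WT, and their part in the rise was not tested.

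Of the 45 ubiquitin-specific proteases, 2 rose and 4 fell in 5xFAD against WT, or 13.3% called beside 7.26% of all genes. Usp18, which removes the ubiquitin-like protein ISG15 and is induced by interferon, rose 3.11-fold (edgeR adjusted p = 0.00311), and Usp35 rose 1.24-fold. Usp31 fell to 0.753-fold, Usp9x to 0.759-fold and Usp15 to 0.818-fold. Between 5xFAD-Dp16 and Dp16, Usp18 rose 2.79-fold and Usp39 fell to 0.831-fold. Nfe2l2, a stress-response transcription factor placed in the assembly list as a regulator of proteasome genes, rose 1.49-fold in 5xFAD against WT and 1.59-fold in 5xFAD-Dp16 against Dp16 (edgeR adjusted p = 0.014 and 0.00632).

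Of the 141 genes in the 7 remaining lists, 8 (5.67%) were called between 5xFAD and WT, a share near the 7.26% of all genes. Rack1, a ribosomal protein in the list of ribosome-associated quality control, rose 1.31-fold, and Bag1, a nucleotide exchange factor of HSP70, rose 1.19-fold. Hspa12a, a distant HSP70 relative, fell to 0.729-fold, and Pcgf3, a Polycomb subunit, fell to 0.760-fold. Of the 12 Akt signalling genes 4 fell, with the kinase genes Pdpk1 and Mtor at 0.779-fold and 0.787-fold and Rictor, a subunit of an mTOR complex, at 0.756-fold. Excitatory neuron markers (median -0.43) and hippocampal neuron markers (0 of 6 positive, 1 called lower, median -0.62) were lower in the same contrast, and 3 of the 4 5xFAD libraries were high in thalamus markers. The part of these tissue differences in the Akt list was not tested. No gene of the 19S, 20S or DNAJ lists was called there.

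The genes whose log2 levels most resembled those of the members over the 16 libraries were mostly of the segment. The nearest was App for Usp25 (Pearson r = 0.95) and Ttc3 (0.98), Zbtb21 for Ltn1 (0.95) and Dnajc28 (0.93), Tmem50b for Hspa13 (0.96) and Sod1 for Psmg1 (0.91). The second nearest were Zbtb21, Cct8, App, Brwd1, Cct8 and Atp5o, in that order of members. For Usp16 the second nearest, after Mal, was D16Ertd472e, of the segment (0.85). Outside the segment, Slc5a5 was nearest to Usp25, Ltn1, Ttc3, Hspa13 and Dnajc28, with r from 0.89 to 0.94, and Tut1 was nearest to Psmg1 (0.80). These correlations over 16 libraries share the 4 genotypes and the library scaling. After group and sex means were removed, the highest correlation between members was that of Usp25 with Ltn1 (0.72) and the lowest that of Usp25 with Psmg1 (-0.50).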

How the data were processed

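Strand-specific libraries of polyadenylated RNA were sequenced as pairs, per the labels. Per the submitters' processing notes, the build was GRCm38 and the tools were HTSeq 0.6.1, HISAT2 2.1.0, SAMtools 1.5, FastQC 0.11.5 and bcl2fastq, with no roles or strand setting stated. The authors deposited raw read counts per gene, which were tested as deposited. The deposited RPKM values equal the count over the library total and 1 length per gene, and served for levels and 1 alternative. Counts were filtered (filterByExpr, minimum count 10), TMM-scaled and fitted with edgeR 4.0.16 (R 4.3.3) to all 16 libraries with group and sex as terms, and 8 comparisons were made. A log2 CPM prior of 0.5 was used for ratios and scores. The segment ran from Lipi to Zbtb21. Alternatives used DESeq2 1.42.0, limma 3.58.1 on log2(RPKM + 0.1), other scalings, no filter, no sex term, a thalamus score as covariate, fewer groups and fewer libraries. The fit was checked on simulated counts with known changes. Named genes were the members, Psmg2, Nemf and Usp28, and the genes most correlated with each member (2 anywhere, 2 outside the segment). Per pathway list and comparison, at most the 3 called genes of smallest p in each direction were also named. Members, lists and tests were chosen with earlier results of these data known. Of the marker lists, Clic6 lies in the segment and was left out.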

Additional observations from a re-analysis of the deposited data

How the results depend on the processing

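No paired analysis was possible because the library numbers are unique to each library. Precision is limited by 4 libraries per group and, for Psmg1, Usp16 and Dnajc28, by counts of 157 to 628 per library. No call of a member reversed. The members called between 5xFAD-Dp16 and 5xFAD went from 5 to 0 with only these 2 groups fitted (fewer samples). Between 5xFAD and WT, DESeq2 called 1 instead of 0. Between transgene carriers and non-carriers, the edgeR fit with DESeq2's size factors and DESeq2 each called 1 instead of 0. The cause was not tested. When each library was left out in turn, the members called were 4 to 6 for Dp16 against WT, 4 to 5 for 5xFAD-Dp16 against 5xFAD, 6 for all carriers, 0 to 1 for transgene carriers (1 without 5xFAD 10) and 0 elsewhere. Psmg1 passed between Dp16 and WT without 5xFAD-Dp16 1 (adjusted p = 0.0346). With limma on RPKM it did not pass over all carriers, nor did Dnajc28 in either separate contrast (0.0951 and 0.0761).

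Over all genes, edgeR called 39 for Dp16 against WT, 52 for 5xFAD-Dp16 against 5xFAD, 91 for carriers, 1244 for 5xFAD against WT, 518 for 5xFAD-Dp16 against Dp16, 1473 for transgene carriers, 0 for the interaction and 11 for sex. With no count filter these were 360, 1656, 1447, 2692, 890, 2793, 290 and 330. DESeq2 gave 74, 720, 489, 2124, 689, 2367, 0 and 30. Without the 6 libraries high in thalamus markers, 69 were called for Dp16 against WT, 101 for 5xFAD-Dp16 against 5xFAD, 300 for 5xFAD against WT, 629 for transgene carriers and 15 for the interaction. With only 2 groups fitted, 1 was called for 5xFAD-Dp16 against 5xFAD and 522 for 5xFAD against WT. Without 5xFAD 10, the counts were 2064 for 5xFAD-Dp16 against 5xFAD, 1212 for carriers, 3499 for 5xFAD against WT and 3314 for transgene carriers. Leaving out any other library gave 32 to 188, 64 to 152, 563 to 1475 and 1032 to 1976 for these 4.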
